A study of Mus musculus with 6 samples.

Results

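The endocannabinoid genes described here are the receptor gene Cnr1 and the genes of 6 enzymes that make or degrade its lipid ligands: Dagla, Daglb, Napepld, Mgll, Abhd6 and Faah. They were chosen by name, with earlier results of these data known, and all 7 were listed among the 24841 genes of the deposited table. Endocannabinoids are lipid messengers that neurons make on demand from membrane phospholipids. In the striatum the best known of them, 2-arachidonoylglycerol (2-AG), is released from medium spiny neurons (MSNs) and travels backwards across the synapse to the CB1 receptor on incoming axon terminals, where it lowers transmitter release. Anandamide is the other main ligand, with its own enzymes of synthesis and breakdown.

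The libraries are single-nucleus RNA libraries of dissected, frozen mouse striatum, 3 from wild-type mice and 3 from mice heterozygous for Celsr3, an adhesion receptor gene of the cadherin family. The comparison asks how expression in striatal cells differs between these 2 genotypes. Each library is labelled as 1 biological replicate, and no animal is said to be shared or pooled. The labels give no sex, age, strain, litter, allele or preparation batch and no treatment, and they say that all 6 libraries shared a sequencing lane. Values are depth-corrected UMI values per gene and nucleus, so the original depth of a nucleus is unknown. A level below is the mean of these values over the nuclei of a class in 1 library, and libraries are listed as replicates 1, 2 and 3.

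Of 48834 nuclei, 47934 were kept, with between 7735 and 8875 listed per library. Genes detected per nucleus had their lowest median in wild-type replicate 1, at 2438, and their highest in heterozygous replicate 2, at 3002.5. A total of 275 barcodes occurred in more than 1 library. Nuclei were clustered without the 7 genes and 26 related ones, and 14 classes, each holding 20 or more nuclei per library, were named "X-like" from marker genes. Drd1 averaged 1.02 in D1 MSN-like nuclei against 0.112 for the D2 MSN-like class, and Drd2 averaged 0.0938 against 4.003. Ppp1r1b, the MSN gene of DARPP-32, averaged 0.767 in D1 MSN-like nuclei but still 0.548 in microglia-like and 0.205 in glutamatergic neuron-like nuclei. The glutamatergic neuron-like class held between 198 and 1503 nuclei per library, and its cell bodies are not native to the striatum proper. The Celsr3 level in D1 MSN-like nuclei was 0.150, 0.168 and 0.180 in wild-type and 0.0779, 0.101 and 0.101 in heterozygous libraries, so the groups were separate in the direction of the labels, as for 5.08% of genes in this class (log2 change −0.77 ± 0.13 SE, limma adjusted p = 0.142).

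Cnr1 (GRCm38 chromosome 4, 33924593 to 33948831, plus strand, protein-coding) encodes the CB1 receptor, a G protein-coupled receptor. Its level was 2.62 ± 0.450 in D2 MSN-like nuclei and 2.49 ± 0.495 in D1 MSN-like nuclei (SD, n = 6 libraries). Both classes come from the same libraries, and D2 MSN-like nuclei were above in 5 of 6. The log2 difference within a library, D1 minus D2 MSN-like, was −0.08 ± 0.11 (SD, n = 6), from −0.17 to 0.11. The D1 MSN-like level joins unlike clusters, with means from 0.601 in cluster 4 to 3.61 in cluster 2, described below. The likeness of the class means therefore does not hold for each cluster. GABAergic interneuron-like nuclei followed at 1.41 ± 0.214, with no library reaching the lowest D1 MSN-like library. With clustering at resolution 0.5 in place of 1.0 the level of this class was 0.870. Eccentric MSN-like nuclei, a type of MSN marked by Otof and Casz1, came next at 0.713 ± 0.360, with single libraries from 0.235 to 1.24. The other 10 classes lay between 0.161 in committed oligodendrocyte precursor-like and 0.470 in oligodendrocyte precursor cell (OPC)-like nuclei, and each overlapped its neighbour in the order. The OPC-like level (SD 0.283) was raised by heterozygous replicate 1, at 1.03 from 29 nuclei. Its other libraries lay between 0.297 and 0.441.

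A Cnr1 value above 0 was found in 70.3% (D1) and 69.9% (D2) of MSN-like nuclei, at medians of 3389 and 3265 genes per nucleus. Microglia-like nuclei, a type not known for the receptor, had such a value in 17.9% of nuclei at a median of 1896 genes and a level of 0.447 ± 0.144. The microglial level was lowest in wild-type replicate 1, at 0.197, and highest in wild-type replicate 2, at 0.605, which were also the libraries with the lowest and the highest Cnr1 level over all nuclei (0.838 and 1.61). Glutamatergic neuron-like nuclei, with 24.0% above 0 at a median of 3573 genes, had a lower level than microglia-like nuclei (0.332 ± 0.0824), but their cluster 10, with 37.0% above 0, averaged 0.570 ± 0.0991. The part of free RNA in the low levels was not tested.

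**Figure D1:**
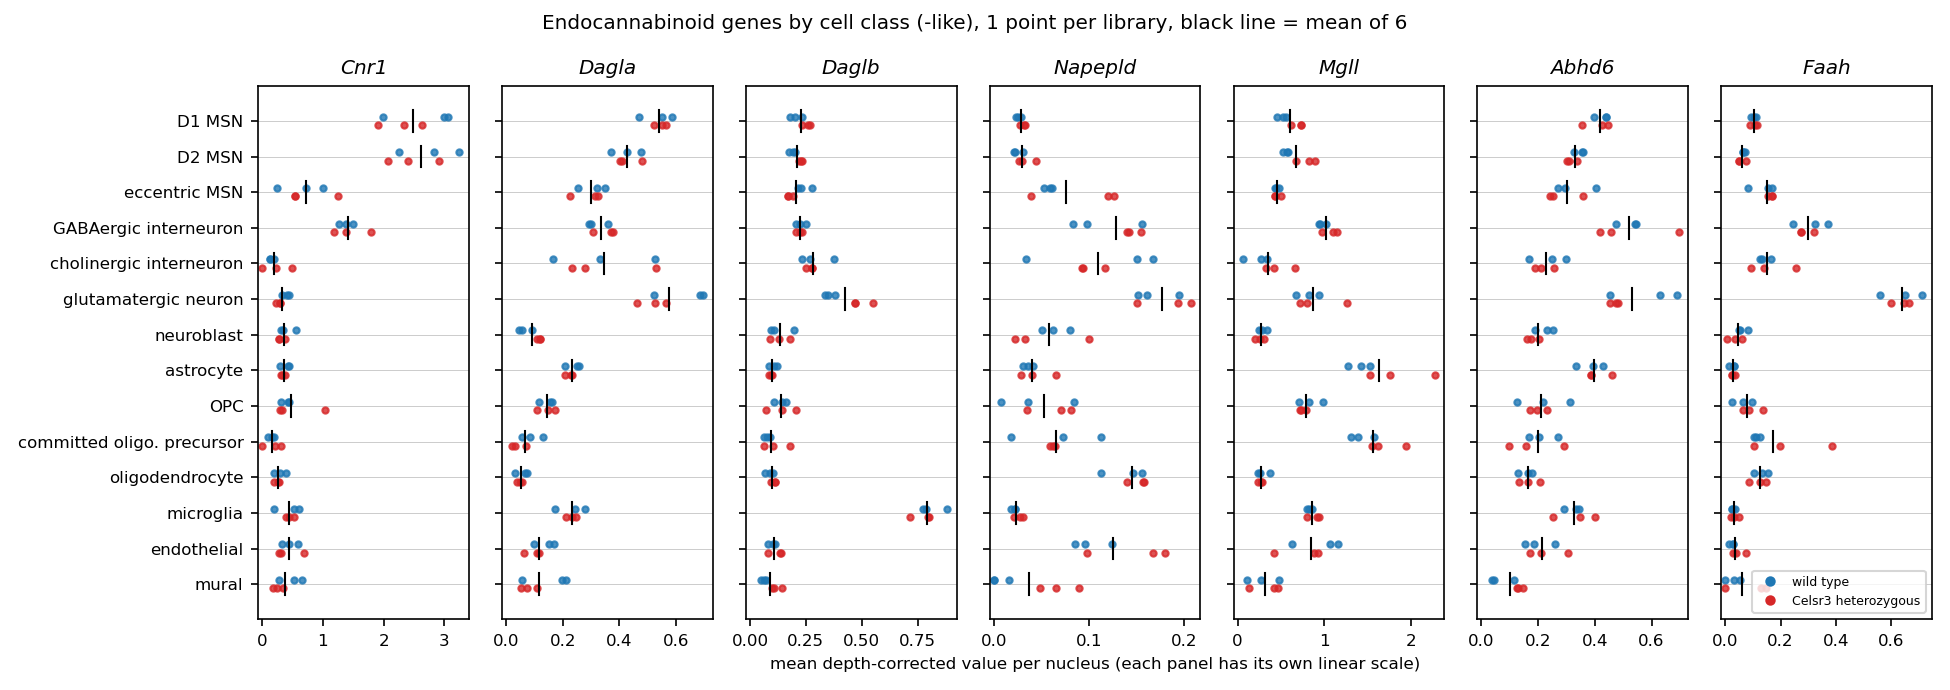
Level of each of the 7 genes (mean depth-corrected value per nucleus, x axis, own linear scale per gene) in 14 classes (rows). Each point is 1 library, blue for wild type and red for Celsr3 heterozygous, and the black line is the mean of 6; Cnr1 stands highest in the D1 and D2 MSN-like classes, Daglb in microglia-like, Mgll in astrocyte-like and committed oligodendrocyte precursor-like, and Faah in glutamatergic neuron-like nuclei.

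Within D1 MSN-like nuclei the receptor gene was uneven. The class joined 3 clusters, and in cluster 2 the Cnr1 level was 3.20, 4.17 and 4.09 in wild-type and 3.31, 2.94 and 3.97 in heterozygous libraries. In cluster 4, whose leading genes were Pdyn, Tcfl5 and Cftr, it was 0.663, 0.683 and 0.630 in wild-type and 0.522, 0.510 and 0.600 in heterozygous libraries. The highest library of cluster 4 was thus below the lowest of cluster 2, and a value above 0 was found in 39.5% of the nuclei of cluster 4 against 87.6% in cluster 2, at medians of 3500 and 3361 genes. The third cluster, 14, averaged 2.99 ± 0.445, and the 2 D2 MSN-like clusters, 0 and 8, averaged 2.74 ± 0.426 and 2.35 ± 0.494 (SD, n = 6). Of the 8 general MSN markers, 2 were over 2-fold above other nuclei in cluster 4, 5 in cluster 2 and 6 in cluster 14. Each of these 3 clusters had 4 of 6 D1 MSN markers at that level. Not every gene of the set was lower in cluster 4: Abhd6 averaged 0.516 ± 0.0576 there and 0.369 ± 0.0350 in cluster 2, with no overlap between libraries. Dagla went the same way as Cnr1, at 0.459 ± 0.0301 in cluster 4 and 0.618 ± 0.0398 in cluster 2, also with no overlap. These levels describe clusters of the same nuclei and carry no test. Among interneuron clusters, Cnr1 averaged 1.53 ± 0.327 in cluster 21, led by Vip, 1.52 ± 0.323 in cluster 23, led by Sfta3-ps and Gna14, and 0.747 ± 0.157 in cluster 30, led by Nos1. Cluster 30 overlapped cluster 21, and its highest library, 1.02, was below the lowest of cluster 23, 1.24. The mix of these clusters was uneven. Before doublets were left out, cluster 21 held between 43 and 267 nuclei per library and cluster 23 between 71 and 123.

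**Figure D2:**
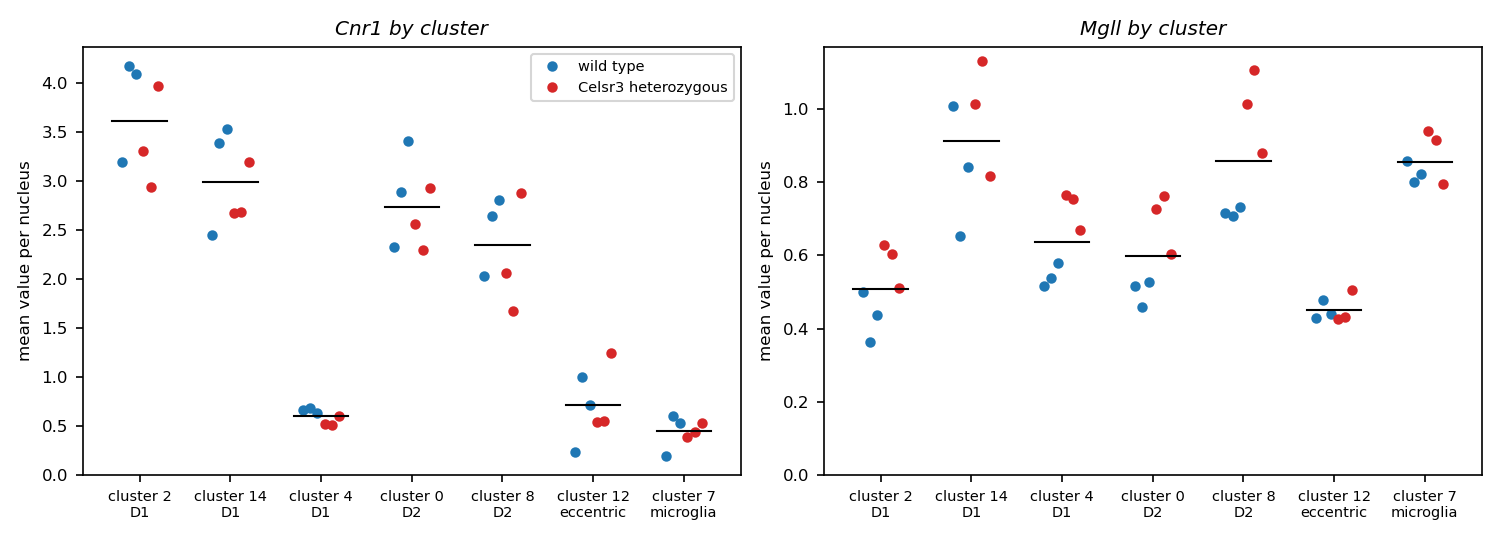
Cnr1 (left) and Mgll (right) level per library (mean value per nucleus, y axis from 0) in the 3 clusters of D1 MSN-like, the 2 of D2 MSN-like, the eccentric MSN-like and the microglia-like nuclei; points are libraries and lines the means of 6. Cnr1 in cluster 4 lies between 0.510 and 0.683, below every library of clusters 2 and 14.

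The Cnr1 genotype comparison gave no call. In D1 MSN-like nuclei the level was 1.99, 3.07 and 2.99 in wild-type and 2.34, 1.90 and 2.63 in heterozygous libraries. The groups overlapped, with the lowest wild-type library near the lowest heterozygous one (log2 change −0.21 ± 0.17 SE, adjusted p = 0.691). Cluster 4 made up 44.5%, 28.5% and 29.8% of the D1 MSN-like nuclei in wild-type and 31.6%, 41.5% and 36.4% in heterozygous libraries, and the libraries with the largest shares, wild-type replicate 1 and heterozygous replicate 2, were the libraries with the lowest Cnr1. These 2 libraries were also the lowest within cluster 2 alone, at 3.20 and 2.94, and in D2 MSN-like nuclei, which held no nuclei of cluster 4. The part of the cluster mix in this order was not tested. Within the clusters the log2 change was −0.17 ± 0.13 in cluster 2, −0.27 ± 0.09 in cluster 4 and −0.12 ± 0.13 in cluster 14 (SE, limma adjusted p = 0.739, 0.371 and 0.861). In cluster 4 every heterozygous library was below the wild-type range. The share of genes with this pattern was 5.08% in the whole D1 MSN-like class and was not counted within cluster 4. In D2 MSN-like nuclei the level was 2.25, 2.83 and 3.25 in wild-type and 2.40, 2.07 and 2.92 in heterozygous libraries, again overlapping (log2 change −0.17 ± 0.15, adjusted p = 0.802). Over all nuclei it was 0.838, 1.61 and 1.26 against 1.07, 0.936 and 1.07, and the heterozygous libraries lay inside the wild-type range (log2 change −0.22 ± 0.22, adjusted p = 0.693). Leaving out 1 library at a time, the Cnr1 log2 change ranged from −0.41 to −0.086 in D1 MSN-like nuclei, from −0.31 to −0.048 for the D2 MSN-like class and from −0.47 to −0.0018 over all nuclei. The all-nuclei mean alone does not separate fewer nuclei of a class from less RNA per nucleus, but shares and levels by class are known here. D1 MSN-like nuclei made up 14.3% to 23.3% of all nuclei in wild-type and 14.9% to 19.5% in heterozygous libraries. D2 MSN-like nuclei made up 12.4% to 21.3% and 11.9% to 14.98%. Both shares were highest in wild-type replicate 2, the library with the highest Cnr1 level over all nuclei. The size of their part in the all-nuclei change was not tested.

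In glutamatergic neuron-like nuclei the Cnr1 level was 0.413, 0.444 and 0.329 in wild-type and 0.288, 0.227 and 0.291 in heterozygous libraries. The groups were separate with the heterozygous libraries below, a pattern of 4.86% of the 12492 genes tested in this class, and the log2 change of −0.54 ± 0.16 did not pass the adjustment (limma adjusted p = 0.795). In wild-type replicate 1 the level was above that of its microglia-like nuclei (0.413 against 0.197), and in the other libraries it was below. The clusters of the class were unevenly spread: cluster 13, with a level of 0.262, was 0.382% of the class in heterozygous replicate 3 and 52.7% in heterozygous replicate 2. The 8 markers of MSNs, where Cnr1 is highest, all had a lower mean in heterozygous glutamatergic neuron-like nuclei, with sums of 7.41 to 11.8 in wild-type and 7.74 to 9.35 in heterozygous libraries and no marker at 0 in every library. Their part in the Cnr1 difference was not tested. The part of the cluster mix was tested only within cluster 10, where the log2 change was −0.31 ± 0.18 (adjusted p = 0.922).

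Dagla (GRCm38 chromosome 19, 10245265 to 10304877, minus strand) encodes diacylglycerol lipase alpha, the main enzyme of 2-AG synthesis at synapses. Its level was highest in glutamatergic neuron-like nuclei, 0.577 ± 0.0943, and D1 MSN-like nuclei, 0.541 ± 0.0409, whose ranges overlapped. D2 MSN-like nuclei followed at 0.428 ± 0.0430 (SD, n = 6). The D1 MSN-like level was above the D2 MSN-like level in 6 of 6 libraries, by 1.26 times on the means. Oligodendrocyte-like nuclei stood lowest, at 0.0523 ± 0.0165. By genotype, the level in D1 MSN-like nuclei was 0.469, 0.553 and 0.585 in wild-type and 0.523, 0.550 and 0.567 in heterozygous libraries, so the heterozygous libraries lay inside the wild-type range (log2 change 0.03 ± 0.10, adjusted p = 0.921). The log2 change was 0.02 ± 0.11 in D2 MSN-like nuclei (adjusted p = 0.979) and −0.28 ± 0.14 in glutamatergic neuron-like nuclei (adjusted p = 0.928).

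Daglb (GRCm38 chromosome 5, 143464584 to 143505942, plus strand) encodes the second diacylglycerol lipase, known as the major form in microglia and macrophages. Microglia-like nuclei had the highest level, 0.776, 0.788 and 0.883 in wild-type and 0.796, 0.716 and 0.801 in heterozygous libraries. The lowest of these was above every library of the next class, glutamatergic neuron-like nuclei, at 0.425 ± 0.0842 (SD, n = 6). MSN-like and interneuron-like classes lay between 0.208 and 0.281, and mural-like nuclei were lowest at 0.0891 ± 0.0342.

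By genotype, Daglb was higher in heterozygous libraries in 3 neuronal classes at an unadjusted p under 0.05, and none of these differences was called. Over all nuclei the level was 0.203, 0.199 and 0.209 in wild-type and 0.264, 0.219 and 0.229 in heterozygous libraries, separate as for 14.8% of genes (log2 change 0.21 ± 0.09, limma adjusted p = 0.5004). In D2 MSN-like nuclei the level was 0.203, 0.191 and 0.174 in wild-type and 0.234, 0.221 and 0.230 in heterozygous libraries. Every heterozygous library lay above the wild-type range, as they did for 8.91% of the genes tested in this class (log2 change 0.26 ± 0.10, limma adjusted p = 0.522). The D1 MSN-like level was 0.234, 0.181 and 0.202 against 0.232, 0.260 and 0.268, with 1 pair of libraries crossing (log2 change 0.29 ± 0.12, adjusted p = 0.439). In glutamatergic neuron-like nuclei it was 0.382, 0.348 and 0.335 against 0.468, 0.551 and 0.468, again separate, as for 6.57% of genes there (log2 change 0.47 ± 0.12, limma adjusted p = 0.649). Within this class the log2 change was 0.48 ± 0.16 in cluster 10 and 0.58 ± 0.17 in cluster 15 (adjusted p = 0.922 and 0.740). The 10 microglial markers summed to between 1.03 and 1.098 in wild-type and between 0.887 and 0.969 in heterozygous libraries of D2 MSN-like nuclei, and 4 of 10 had a higher mean in heterozygous libraries. In glutamatergic neuron-like nuclei the sums ran from 1.02 to 1.21 and from 0.950 to 1.04, also with 4 of 10 higher. For the D1 MSN-like class they ran from 1.15 to 1.24 and from 1.04 to 1.09, with 2 of 10 higher, and for the eccentric MSN-like class from 0.812 to 1.12 and from 0.772 to 0.926, with 5 of 10 higher. The sum was lower in heterozygous microglia-like nuclei too, at 45.5 to 57.3 against 60.1 to 63.6. No marker was at 0 in every library, and the part of microglial RNA in the Daglb differences was not tested. Eccentric MSN-like nuclei showed the opposite order, with 0.229, 0.276 and 0.214 in wild-type and 0.170, 0.191 and 0.168 in heterozygous libraries. There all heterozygous libraries were below, as for 5.14% of genes in that class (log2 change −0.42 ± 0.19, limma adjusted p = 0.978). Groups separate upwards in D2 MSN-like and downwards in eccentric MSN-like nuclei were found for 0.268% of the genes tested in both, and 0.194% for glutamatergic neuron-like with eccentric MSN-like nuclei, pairs of classes chosen after their values were seen.

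The coordinates of Daglb overlap those of Rac1, a small GTPase gene on the opposite strand, and whether strand was used in counting is not given in the sources used here. Reads of the pair can therefore not be told apart with certainty. Rac1 in D2 MSN-like nuclei was 0.309, 0.288 and 0.305 in wild-type and 0.323, 0.363 and 0.319 in heterozygous libraries, so its groups were separate in the same direction, as for 8.91% of genes (log2 change 0.15 ± 0.09, adjusted p = 0.706). Rac1 overlapped between the groups in glutamatergic neuron-like (log2 change 0.22 ± 0.15), D1 MSN-like (0.17 ± 0.11) and eccentric MSN-like nuclei (−0.24 ± 0.27) and over all nuclei (0.02 ± 0.07), with limma adjusted p between 0.620 and 0.995.

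Napepld (GRCm38 chromosome 5, 21662901 to 21701396, minus strand) encodes NAPE-PLD, the phospholipase D that releases anandamide and related ethanolamides from their precursors. The level reached 0.176 ± 0.0248 in glutamatergic neuron-like, 0.145 ± 0.0172 in oligodendrocyte-like, 0.128 ± 0.0307 in the GABAergic interneuron-like class and 0.125 ± 0.0397 in endothelial-like nuclei (SD, n = 6). Neighbours among these classes overlapped. It was lowest in D2 MSN-like (0.0291 ± 0.00853), D1 MSN-like (0.0282 ± 0.00375) and microglia-like nuclei (0.0237 ± 0.00452), where 2.72% of D1 MSN-like and 1.49% of microglia-like nuclei had a value above 0. The D1 MSN-like range of 0.0231 to 0.0328 overlapped the microglial range of 0.0179 to 0.0304. Its D1 MSN-like level was 0.0249, 0.0288 and 0.0231 in wild-type and 0.0280, 0.0328 and 0.0316 in heterozygous libraries, overlapping (log2 change 0.20 ± 0.16, adjusted p = 0.686). In D2 MSN-like nuclei the log2 change was 0.32 ± 0.21 (adjusted p = 0.726).

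Mgll (GRCm38 chromosome 6, 88724412 to 88828360, plus strand) encodes monoacylglycerol lipase, the main enzyme of 2-AG breakdown in brain. Its level was 1.63 ± 0.352 in astrocyte-like and 1.56 ± 0.217 in committed oligodendrocyte precursor-like nuclei (SD, n = 6), which overlapped. The lowest library of the latter class was above every library of GABAergic interneuron-like nuclei, the next class, at 1.02 ± 0.0852. With clustering at resolution 0.5 the interneuron-like level was 0.615, below that of several other classes, so its place in the order depends on the clustering. Within this class cluster 21 averaged 1.20 ± 0.252 and cluster 23 averaged 0.806 ± 0.112, and their ranges overlapped. Mature oligodendrocyte-like nuclei were near the bottom of the order, at 0.273 ± 0.0503, and neuroblast-like nuclei at 0.272 ± 0.0452. The oligodendrocyte-like clusters differed, with 0.229 ± 0.0448 in cluster 1 and 0.633 ± 0.118 in the smaller cluster 22. D2 MSN-like nuclei were above D1 MSN-like nuclei in 6 of 6 libraries, with levels of 0.676 ± 0.149 and 0.602 ± 0.110. The astrocyte-like clusters were not alike: clusters 3 and 18 averaged 1.82 ± 0.343 and 1.91 ± 0.350, and cluster 9, led by B230323A14Rik, Etnppl and Agt, 0.981 ± 0.206, whose highest library was below the lowest of the other astrocyte-like clusters. The glutamatergic clusters also varied, with 1.27 ± 0.175 in cluster 15 and 0.301 ± 0.0423 over the 4 libraries with at least 20 nuclei of cluster 13. The coordinates of Mgll overlap those of 5 genes, of which only Gm26588, on the opposite strand, had values here. Its means were 0.0019 in wild-type and 0.0040 in heterozygous D1 MSN-like nuclei, and 0.0020 and 0.0041 for the D2 MSN-like class. The libraries overlapped, Gm26588 did not pass the filter, and shared reads were not tested.

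Mgll gave the smallest adjusted p of the 7 genes by genotype in D1 and D2 MSN-like nuclei, still above the threshold. In D2 MSN-like nuclei the level was 0.570, 0.518 and 0.584 in wild-type and 0.821, 0.889 and 0.671 in heterozygous libraries. Each heterozygous library was above the wild-type range, as for 8.91% of genes, and heterozygous replicate 3 was the nearest to it (ratio of means 1.42, log2 change 0.50 ± 0.11 SE, limma adjusted p = 0.204). In D1 MSN-like nuclei the level was 0.561, 0.454 and 0.528 in wild-type and 0.726, 0.729 and 0.612 in heterozygous libraries. The groups were again separate, a pattern of 11.7% of the genes tested in D1 MSN-like nuclei (ratio of means 1.34, log2 change 0.42 ± 0.11, limma adjusted p = 0.252). The D1 and D2 changes were not told apart, with a difference of −0.08 ± 0.07 on the log2 scale (limma adjusted p = 0.960).

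The order was the same in single clusters of both classes. The log2 change was 0.42 ± 0.13 in cluster 2 and 0.41 ± 0.09 in cluster 4 of the D1 MSN-like nuclei, and 0.47 ± 0.11 in cluster 0 and 0.46 ± 0.11 in cluster 8 of the D2 MSN-like nuclei (SE). In each of these 4 clusters each heterozygous library was above the wild-type range, as for 9.9%, 11.6%, 9.52% and 7.87% of the genes tested in clusters 2, 4, 0 and 8, and the limma adjusted p was between 0.178 and 0.450. In cluster 14 the libraries overlapped (log2 change 0.25 ± 0.17, adjusted p = 0.767). Astrocyte-like and committed oligodendrocyte precursor-like nuclei had the highest Mgll levels, so the markers of both were summed in MSN-like nuclei: in D2 MSN-like nuclei the 10 astrocyte markers came to between 7.15 and 7.61 in wild-type and between 7.18 and 8.07 in heterozygous libraries, 4 of 10 had a higher mean in heterozygous libraries and none was at 0 in every library. The D1 MSN-like sums ran from 7.38 to 8.16 and from 7.50 to 8.42, also with 4 of 10 higher. The 6 committed precursor markers ran from 0.360 to 0.416 against 0.234 to 0.450 for the D2 MSN-like class, with 1 of 6 higher, and from 0.338 to 0.449 against 0.200 to 0.388 for the D1 MSN-like class, with 2 of 6 higher, and none at 0 in every library. All these pairs of ranges overlapped, and in astrocyte-like nuclei the same sum was between 76.0 and 86.8. Mgll itself averaged 1.85 in heterozygous and 1.41 in wild-type astrocyte-like nuclei, and the part of RNA from either cell type in the MSN-like difference was not tested.

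In 3 alternative fits Mgll passed the threshold. With limma array weights, which give less weight to libraries that vary more, the log2 change was 0.45 for D1 (adjusted p = 0.0351) and 0.54 for D2 MSN-like nuclei (adjusted p = 0.0398), in fits that called 4.12% and 1.22% of all genes. Without wild-type replicate 1 it was 0.48 in D1 MSN-like nuclei (adjusted p = 0.0493), where 1.76% of all genes were called. Over all its alternatives, the adjusted p ranged from 0.0351 to 0.767 for the D1 MSN-like class and, for the D2 MSN-like class, from 0.0398 to 0.674.

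In astrocyte-like nuclei the Mgll level was 1.27, 1.43 and 1.53 in wild-type and 2.27, 1.53 and 1.76 in heterozygous libraries. The groups nearly touched without crossing, a pattern of 7.39% of genes there, and heterozygous replicate 1 stood highest (log2 change 0.38 ± 0.14, limma adjusted p = 0.708). The low-Mgll cluster 9 was 4.56% of the class in that library and between 20.5% and 42.0% in the others. Within the clusters the log2 change was 0.35 ± 0.13 in cluster 3, 0.52 ± 0.14 in cluster 9 and 0.21 ± 0.16 in cluster 18 (limma adjusted p = 0.649, 0.661 and 0.855). Over all nuclei the level was 0.580, 0.610 and 0.699 against 0.869, 0.691 and 0.743, with heterozygous replicate 2 below wild-type replicate 3 (log2 change 0.28 ± 0.11, adjusted p = 0.488). The other classes tested overlapped by genotype. Their log2 changes ran from −0.39 ± 0.30 in endothelial-like, −0.19 ± 0.28 in neuroblast-like, −0.16 ± 0.19 in OPC-like and −0.09 ± 0.18 in oligodendrocyte-like nuclei, through 0.01 ± 0.14 in eccentric MSN-like and 0.09 ± 0.12 in microglia-like, to 0.15 ± 0.11 in GABAergic interneuron-like, 0.16 ± 0.22 in glutamatergic neuron-like and 0.25 ± 0.18 in committed oligodendrocyte precursor-like nuclei (limma adjusted p between 0.817 and 0.999).

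**Figure D3:**
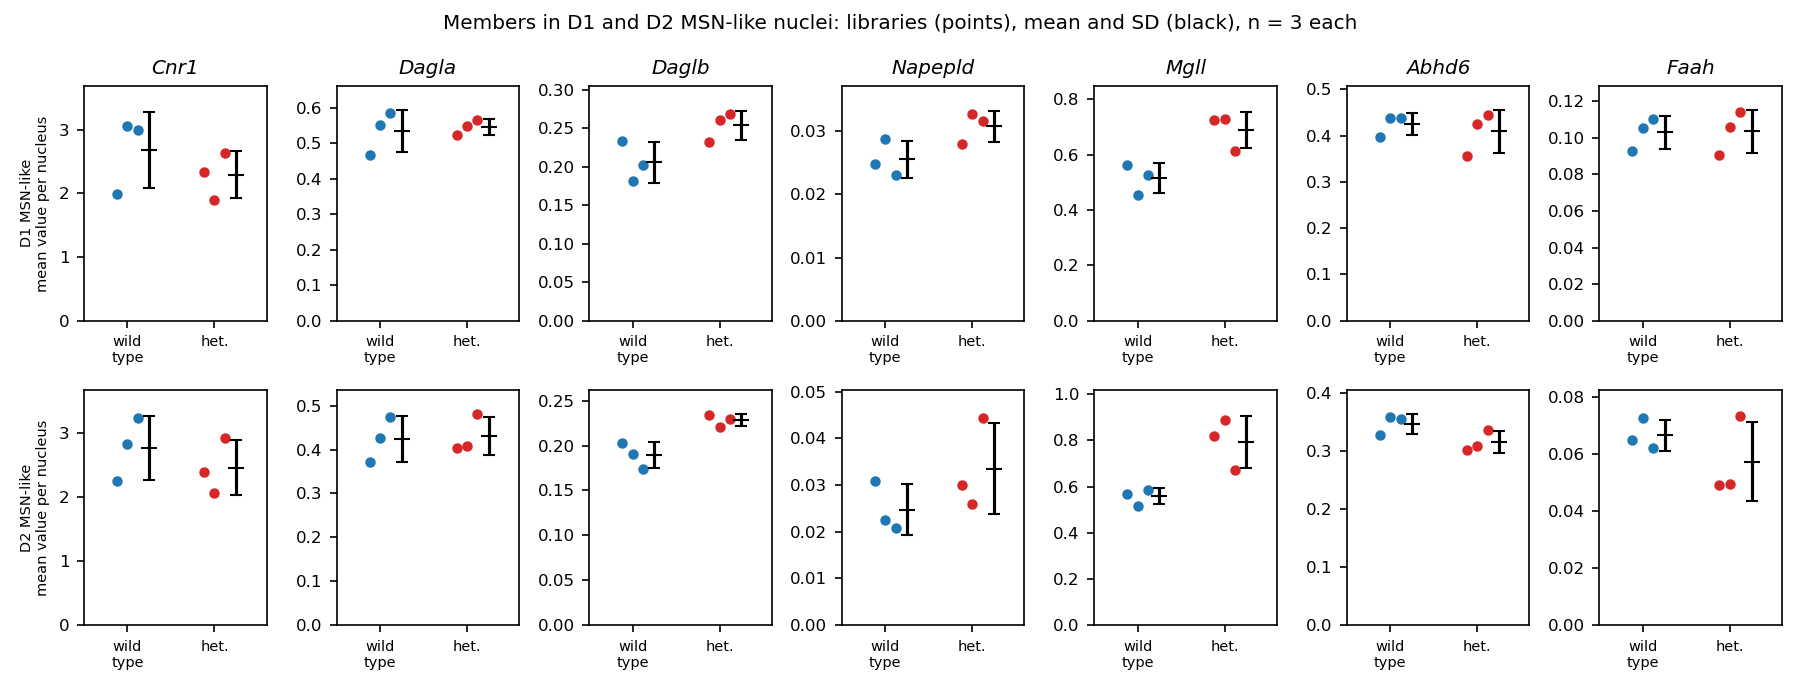
Level of the 7 genes (mean value per nucleus, y axis from 0) in D1 MSN-like (top) and D2 MSN-like nuclei (bottom) of 3 wild-type (blue) and 3 Celsr3 heterozygous libraries (red). Points are libraries, black marks the group mean with its SD; only Mgll in both classes and Daglb in D2 MSN-like nuclei show groups that do not overlap.

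Abhd6 (GRCm38 chromosome 14, 8002902 to 8056763, plus strand) encodes a serine hydrolase that degrades 2-AG within the neurons that make it. Glutamatergic neuron-like nuclei had a level of 0.530 ± 0.103, with 0.522 ± 0.0988 in the GABAergic interneuron-like class, followed by 0.417 ± 0.0344 in D1 MSN-like, 0.398 ± 0.0421 in astrocyte-like and 0.331 ± 0.0235 in D2 MSN-like nuclei (SD, n = 6). Neighbours in this order overlapped. D1 MSN-like nuclei were above D2 MSN-like nuclei in 6 of 6 libraries, by 1.26 times on the means, and mural-like nuclei were lowest at 0.0992 ± 0.0475. In D2 MSN-like nuclei the level was 0.327, 0.359 and 0.355 in wild-type and 0.302, 0.308 and 0.336 in heterozygous libraries, with 1 pair crossing (log2 change −0.13 ± 0.09, adjusted p = 0.728). Within this class the log2 change was −0.08 ± 0.11 in cluster 0 and −0.34 ± 0.13 in cluster 8 (limma adjusted p = 0.885 and 0.538). In cluster 8 every heterozygous library was below the wild-type range, as for 5.51% of genes in the whole class. That share was not counted within cluster 8. The D1 MSN-like log2 change was −0.06 ± 0.10 (adjusted p = 0.862).

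Faah (GRCm38 chromosome 4, 115967145 to 116017926, minus strand) encodes fatty acid amide hydrolase, the main enzyme of anandamide breakdown. Glutamatergic neuron-like nuclei had the highest level, 0.639 ± 0.0535, and their lowest library, 0.558, was above the highest GABAergic interneuron-like library, 0.370. The remaining named classes lay between 0.171 in committed oligodendrocyte precursor-like and 0.0272 in astrocyte-like nuclei. Cluster 5, left unnamed though high in oligodendrocyte markers, averaged 0.245 ± 0.0348. Of the named oligodendrocyte-like clusters, cluster 22 averaged 0.245 ± 0.0414 and cluster 1 averaged 0.109 ± 0.0216. D1 MSN-like nuclei, at 0.103 ± 0.00942, were above D2 MSN-like nuclei, at 0.0620 ± 0.0107, in 6 of 6 libraries and without overlap, by 1.66 times on the means. By genotype, the D2 MSN-like level was 0.0650, 0.0727 and 0.0621 in wild-type and 0.0491, 0.0496 and 0.0734 in heterozygous libraries. Heterozygous replicate 3 stood above all wild-type libraries and the other two below them (log2 change −0.20 ± 0.17, adjusted p = 0.795). The D1 MSN-like log2 change was 0.01 ± 0.13 (adjusted p = 0.994).

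Over the whole set, 0 of 7 genes were called in all nuclei, D1 MSN-like or D2 MSN-like nuclei, at a background of 0.0%, 0.0223% and 0.00784% of all genes called by limma. At an unadjusted p under 0.05, 2 of 7, Daglb and Mgll, were higher in heterozygous libraries in each of these 3 populations and none was lower, against 6.27%, 5.93% and 3.97% of all genes higher and 3.67%, 4.25% and 4.5% lower. The median log2 change of the 7 was 0.09, 0.03 and 0.02, and that of all genes tested was 0.07, 0.06 and 0.04. In the other classes 46 gene and class pairs passed the filter on low values, in 10 classes, with log2 changes from −0.54 to 0.47 and a smallest adjusted p of 0.649. Of these pairs 3 had an unadjusted p under 0.05, Cnr1 and Daglb in glutamatergic neuron-like and Mgll in astrocyte-like nuclei, where 5.39% and 6.33% of all genes did. No gene of the set passed the filter in cholinergic interneuron-like or mural-like nuclei. The D1 against D2 difference of the genotype change was called for none of the 7, with adjusted p from 0.906 to 0.992, in a test that called 0.0% of 12694 genes (702, or 5.53%, at an unadjusted p under 0.05).

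**Figure D4:**
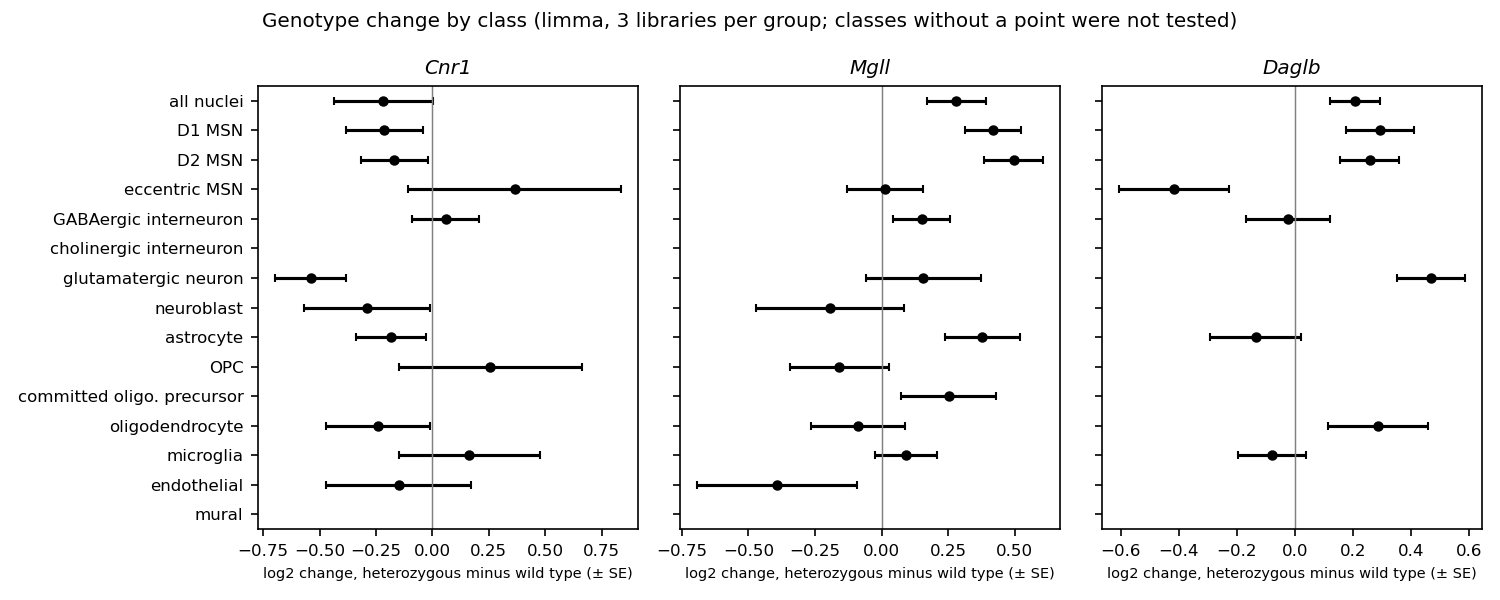
Log2 change with its SE, heterozygous minus wild type (x axis), of Cnr1, Mgll and Daglb in all nuclei and in each class where the gene was tested (rows), from 3 libraries per group. Mgll lies near 0.4 to 0.5 in D1 MSN-like, D2 MSN-like and astrocyte-like nuclei, Daglb is positive in the main MSN-like classes and negative in eccentric MSN-like nuclei, and no adjusted p is under 0.05.

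The related genes were 26 in number, of which 22 passed the filter in the all-nuclei and D1 MSN-like fits and 21 in the D2 MSN-like fit. Limma called none of them. At an unadjusted p under 0.05, 1 was higher and 2 were lower in all nuclei, 2 higher and 1 lower among D1 MSN-like, and 2 higher and 2 lower among D2 MSN-like nuclei. Of all genes tested in these populations, 6.27%, 5.93% and 3.97% were higher and 3.67%, 4.25% and 4.5% lower at this limit. Their median log2 change was 0.05, 0.01 and 0.00 in the same populations.

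Upstream of 2-AG synthesis, Grm5 and Chrm1 encode receptors that couple through phospholipase C beta (Plcb1) to the diacylglycerol that the lipases use. Grm5 in D2 MSN-like nuclei was 25.9, 27.6 and 26.6 in wild-type and 28.7, 27.9 and 25.8 in heterozygous libraries, overlapping (log2 change 0.04 ± 0.07), and Plcb1 had a log2 change of 0.02 ± 0.07 there. Chrm1, the M1 muscarinic receptor, was 0.425, 0.419 and 0.396 in wild-type and 0.464, 0.507 and 0.488 in heterozygous libraries of the D2 MSN-like class. These D2 MSN-like groups were separate, as for 8.91% of genes (log2 change 0.23 ± 0.08, adjusted p = 0.473), and so were the D1 MSN-like ones, as for 11.7% of genes (0.21 ± 0.09, adjusted p = 0.475).

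Around the receptor, Cnrip1 and Sgip1 encode proteins that bind CB1 and modify its signalling or its removal from the membrane, and Gnai1 encodes an inhibitory G protein subunit. The log2 change in D1 MSN-like nuclei was 0.20 ± 0.20 for Cnrip1 and −0.06 ± 0.09 for Sgip1. Gnai1 there was 0.245, 0.304 and 0.311 in wild-type and 0.334, 0.367 and 0.347 in heterozygous libraries, which were separate as for 11.7% of genes (log2 change 0.28 ± 0.11, adjusted p = 0.431). Gpr18, an orphan-like receptor proposed to bind an anandamide metabolite, was 0.135, 0.145 and 0.141 in wild-type and 0.0974, 0.102 and 0.121 in heterozygous libraries in D2 MSN-like nuclei. All heterozygous libraries were below there, as for 5.51% of genes in that class (log2 change −0.37 ± 0.12, limma adjusted p = 0.427). They were also below in D1 MSN-like nuclei, as for 5.08% of genes, and over all nuclei, as for 4.43% of genes.

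Among breakdown and carrier genes, Abhd12, a further 2-AG hydrolase, had log2 changes of 0.15 ± 0.11 among D1 MSN-like nuclei and 0.15 ± 0.10 among the D2 MSN-like. Naaa, an acid amidase of ethanolamides, was 0.0714, 0.0442 and 0.0595 in wild-type and 0.0846, 0.0959 and 0.0676 in heterozygous libraries in D2 MSN-like nuclei, with 1 pair crossing (log2 change 0.45 ± 0.19, adjusted p = 0.557). Fabp5, a fatty acid-binding protein that carries anandamide inside cells, was 0.429, 0.343 and 0.424 in wild-type and 0.285, 0.270 and 0.338 in heterozygous libraries over all nuclei. All heterozygous libraries were below (log2 change −0.41 ± 0.12, adjusted p = 0.459), as for 4.43% of genes.

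For each gene, the 3 genes with the most similar order across the 14 classes were named from 14397 genes by Pearson's r of log2(mean + 0.01). The 14 points share libraries, free RNA and the clustering, so r is given as a description. For Cnr1 they were A330015K06Rik (0.942), A730090N16Rik (0.938) and Myo3b (0.934), for Dagla Hnmt (0.933), Fam49a (0.930) and Snx10 (0.925), and for Daglb Arrb2 (0.960), Tfe3 (0.947) and Mapk14 (0.946). For Napepld they were Hs3st1 (0.845), Hdac7 (0.836) and Lmbrd1 (0.822), and for Mgll Lman1 (0.767), Cadm1 (0.767) and Abr (0.757). For Abhd6 they were Fbh1 (0.883), Iqsec2 (0.849) and Usp2 (0.845), and for Faah Jdp2 (0.915), Gm47658 (0.911) and Katnal1 (0.908). Among the 7 genes themselves, the highest r was 0.779, between Dagla and Abhd6 and the lowest was −0.376, between Cnr1 and Napepld.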

How the data were processed

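The authors deposited 1 table of 24841 genes by 48834 nuclei. Its values were taken as a score: UMI values that the authors had corrected for depth and rounded, since 10.0% of nuclei had low genes at 2 or 3 and none at 1. Cell Ranger and Seurat 4.1 with mm10 and GRCm38 are named per the submitters' processing notes. The method of correction, the filters on nuclei, and the use of strand and of intronic reads in counting are not given in the sources used here. The depth before correction is unknown, so no counting intervals were computed. Per the labels' protocols, libraries used the 10x Genomics 3′ v3.1 chemistry.

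Nuclei with a Scrublet doublet score above 0.25 and clusters with over 40% of them, a macrophage-like one included, were left out (900 nuclei, 1.84%). Clustering used 2000 variable genes without the 33 endocannabinoid genes, 30 principal components, 15 neighbours and Leiden resolution 1.0 (scanpy 1.11.5, igraph 0.11.9, scikit-learn 1.9.0, Python 3.11.15), and gave 45 clusters. A cluster was called X-like with at least 3 markers over 2-fold above other nuclei at a mean above 0.1 and either 40% of the list's markers or 1 in its top 10 genes. The eccentric MSN name also needed a marker in the top 10. A cluster stayed unnamed where no class met this, where another class that met it had as many markers in the top 10, or where any other class had more there (8426 kept nuclei, 17.6%). These limits were set after the clusters were seen.

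Means per library and class, as log2(mean + 0.01), were compared in R 4.3.3 by limma 3.58.1 with a trended empirical Bayes prior, 3 against 3 libraries, over all genes with a mean of at least 0.02 and a summed value of at least 30, both averaged over the 6 libraries, so a single small library can lie below. Fold changes on this scale understate those of low genes. Benjamini-Hochberg adjustment ran over all genes of a population, a gene was called at an adjusted p under 0.05, and every adjusted p in the text comes from such a limma fit, of the alternative where one is named. Differences between classes were tested on the per-library difference. The fit was tested on simulated data. Differences measure the spread between these libraries, whose animals are not described. Named genes were the 7, 6 related genes chosen for this work and others of the list with an unadjusted p under 0.05 in all, D1 MSN-like or D2 MSN-like nuclei, the 3 most similar genes and Celsr3. Tcfl5, Cftr and other cluster-leading genes, and Rac1 and Gm26588, were named after their values were seen. The 7 genes and the lists were chosen with earlier results of these data known. Gene positions are from GENCODE vM21. Alternatives were another pseudocount, no filter, size-factor scaling, array weights, a replicate block, doublets kept, libraries left out, class or cluster weighting and other clusterings.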

Additional observations from a re-analysis of the deposited data

Results flagged for a closer look

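Daglb was the gene of the set whose genotype change had opposite signs, with no overlap between the groups, in different classes. All heterozygous libraries lay above the wild-type ones in D2 MSN-like nuclei (log2 change 0.26) and in glutamatergic neuron-like nuclei (0.47), and all lay below in eccentric MSN-like nuclei (−0.42). Of the genes tested in both classes of a pair, 0.268% and 0.194% were separate in these opposite directions, and in the single classes 8.91%, 6.57% and 5.14% were separate in the direction of Daglb. The pairs were chosen after their values were seen, so these shares are not the rate of finding some such pair among 7 genes. The difference itself, eccentric MSN-like minus D2 MSN-like, was −0.68 ± 0.15 on the log2 scale (SE, limma adjusted p = 0.900 over 6708 genes). Against glutamatergic neuron-like nuclei it was −0.89 ± 0.19 (limma adjusted p = 0.999 over 6702 genes). Neither passed the adjustment. The eccentric MSN-like class was the smallest of these, with between 95 and 282 nuclei per library.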

How the results depend on the processing

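The precision is limited by 3 libraries per group, by unknown depth and by low levels: in cholinergic interneuron-like and mural-like nuclei no gene of the set passed the filter. The 74 log2 changes were recomputed under alternatives other than leaving out a library: 492 recomputed values kept their direction and side of the threshold, 2 came to pass it and 33 reversed, the latter all uncalled in both fits. The replicate block and the fit with no filter leave a log2 change as it is in this balanced design. They could move the adjusted p but not the sign, so their values among the 492 carry no information on direction. The signs of Mgll in astrocyte-like, D1 and D2 MSN-like nuclei and over all nuclei, and those of Daglb in D1, D2 and eccentric MSN-like and glutamatergic neuron-like nuclei, did not reverse under any alternative run. The Cnr1 change in D1 and D2 MSN-like nuclei did not reverse either.

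The cause of a reversal was not tested. With array weights the log2 change was 0.15 for Abhd6 and −0.25 for Cnr1 in OPC-like nuclei, −0.094, −0.17 and −0.25 for Abhd6, Dagla and Faah in all nuclei, and −0.058 for Abhd6 in oligodendrocyte-like nuclei. It was −0.0092 for Cnr1 and −0.0019 for Mgll in eccentric MSN-like, −0.030 for Cnr1 and −0.10 for Dagla in microglia-like, −0.038 for Dagla and −0.027 for Faah among D1 MSN-like nuclei, and −0.076 for Dagla among the D2 MSN-like. Size-factor scaling, which took the median change of all genes from 0.07 to 0.0038 in all nuclei, gave −0.051 for Abhd6 and −0.060 for Dagla there. It gave −0.025 for Dagla and −0.051 for Faah in D1 MSN-like nuclei, −0.017 for Dagla in D2 MSN-like nuclei and −0.0078 for Dagla in the D1 against D2 difference. Equal weight per class gave −0.058 for Abhd6 and −0.081 for Dagla in all nuclei, and equal weight per cluster −0.018 for Dagla in D2 MSN-like nuclei. Fits within single clusters were chosen after the data were seen. They gave −0.065 for Faah in cluster 2, 0.068 for Abhd6 in cluster 14, −0.18 for Dagla in cluster 8, 0.0035 for Cnr1 in cluster 9 and 0.032 for Faah in cluster 15. In cluster 10 Napepld gave −1.001, with heterozygous replicate 2 listed at 0. In the interneuron clusters they gave 0.056, −0.092 and 0.13 for Abhd6, Dagla and Faah in cluster 21, 0.11 for Abhd6 in cluster 23 and −0.14 for Cnr1 in cluster 30.

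Leaving out 1 library at a time reversed 32 of the 74 log2 changes, in 58 recomputed values. The ranges in D1 MSN-like nuclei were −0.12 to 0.036 for Abhd6, −0.056 to 0.10 for Dagla and −0.062 to 0.090 for Faah, and in D2 MSN-like nuclei −0.069 to 0.10 for Dagla. For the D1 against D2 difference they were −0.10 to 0.041 for Cnr1, −0.027 to 0.067 for Dagla, −0.054 to 0.11 for Daglb and −0.28 to 0.040 for Napepld. In all nuclei they were −0.046 to 0.093 for Abhd6, −0.13 to 0.10 for Dagla and −0.073 to 0.25 for Faah. In GABAergic interneuron-like nuclei they were −0.24 to 0.12 for Abhd6, −0.10 to 0.19 for Cnr1, −0.080 to 0.044 for Daglb and −0.26 to 0.036 for Faah. In eccentric MSN-like nuclei they were −0.24 to 0.78 for Cnr1, −0.23 to 0.069 for Dagla and −0.064 to 0.059 for Mgll, and in glutamatergic neuron-like nuclei −0.097 to 0.075 for Faah and −0.086 to 0.31 for Mgll. Microglia-like nuclei gave −0.12 to 0.20 for Abhd6, −0.33 to 0.46 for Cnr1 and −0.17 to 0.16 for Dagla, and astrocyte-like nuclei −0.052 to 0.44 for Napepld. Oligodendrocyte-like nuclei gave −0.070 to 0.23 for Abhd6, −0.50 to 0.014 for Dagla, −0.29 to 0.068 for Faah and −0.22 to 0.11 for Mgll. OPC-like nuclei gave −0.38 to 0.24 for Abhd6 and −0.31 to 0.57 for Cnr1, and endothelial-like nuclei −0.022 to 0.39 for Abhd6 and −0.55 to 0.087 for Cnr1.

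Array weights called 1 gene of the set, Mgll, in D1 and 1, again Mgll, in D2 MSN-like nuclei, and leaving out a library called between 0 and 1 of the set in D1 MSN-like nuclei. Over all genes, D1 MSN-like calls were 3 in the fit reported, 5 with size-factor scaling, 553 with array weights, and from 1 (without heterozygous replicate 1 or 2) to 237 (without wild-type replicate 1). D2 MSN-like calls were 1 in the fit reported, 2 with no filter, 156 with array weights, 2 with doublets kept, and from 0 (without heterozygous replicate 1 or 2) to 121 (without wild-type replicate 1). Where no gene was called, no filter gave 2 in eccentric MSN-like and endothelial-like nuclei and 1 in microglia-like and mural-like nuclei. Array weights gave 2 in endothelial-like and 1 in glutamatergic neuron-like and oligodendrocyte-like nuclei, and a pseudocount of 0.1 gave 1 in glutamatergic neuron-like nuclei. Leaving out a library gave from 0 to 2 in astrocyte-like and neuroblast-like, 0 to 17 in microglia-like and 0 to 1 in oligodendrocyte-like nuclei. At clustering resolution 0.5 the level in GABAergic interneuron-like nuclei was 0.870 for Cnr1 and 0.615 for Mgll; under the clustering alternatives the other 292 recomputed values of the 98 levels by class moved by no more than their SD.

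The replicate numbers are not said to pair the libraries. In D1 MSN-like nuclei, deviations of same-numbered libraries correlated at 0.267, 0.0175 and 0.190, and wild-type replicate 2 correlated best with heterozygous replicate 3, at 0.209. With the replicate block, genes called were 3 for D1 and 5 for D2 MSN-like nuclei and 2 for endothelial-like nuclei, 0 of them among the 7, and Mgll had a limma adjusted p of 0.180 in D1 and 0.137 in D2 MSN-like nuclei.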

Other observations

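Several large clusters had no class name and entered no comparison of classes. Cluster 20, led by Trpm6, Abhd12b and Gm29478 (701 nuclei, median 3738 genes per nucleus), had Napepld at 0.567 ± 0.0829 over the 5 libraries with at least 20 nuclei. Its lowest library, 0.460, was above every library of each of the 14 named classes, of which the highest was 0.206. The same cluster had Dagla at 0.768 ± 0.0853, Abhd6 at 0.738 ± 0.0645 and Faah at 0.598 ± 0.156, and Cnr1 at 0.125 ± 0.0647. Cluster 5, led by 4930420G21Rik, Gm33255 and Hapln2, was high in 10 of 10 oligodendrocyte markers, but its 10 leading genes held a committed precursor marker and no oligodendrocyte marker, which left it unnamed. It had Napepld at 0.214 ± 0.0273, Faah at 0.245 ± 0.0348 and Mgll at 0.298 ± 0.0575 (SD, n = 6). Its Faah range, 0.194 to 0.294, lay above that of oligodendrocyte-like nuclei, 0.0848 to 0.155. Its Mgll range, 0.219 to 0.380, overlapped that of oligodendrocyte-like nuclei and was far below that of committed oligodendrocyte precursor-like nuclei. Cluster 11, led by Pmch (1322 nuclei, median 1722 genes per nucleus), had Cnr1 at 1.16 ± 0.150 and Mgll at 0.642 ± 0.151 (SD, n = 6). Cluster 6, led by Sim1 and Baiap3 (2580 nuclei), had Cnr1 at 0.506 ± 0.0327 and Abhd6 at 0.519 ± 0.0409 (SD, n = 6).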
